A study of Mus musculus with 8 samples.

Results

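The 9 genes described here encode enzymes of the methionine cycle and of transsulfuration. They are *Mat1a*, *Mat2a*, *Gnmt*, *Nnmt*, *Ahcy*, *Bhmt*, *Chdh*, *Cbs* and *Cth*, chosen by name for their place in methionine metabolism, and they are 9 of the 55416 gene identifiers measured. The choice was made with earlier results of these data known. Liver RNA was sequenced from 4 hepatocyte *Smpd3* knockout samples (HKO, genotype Alb-cre+) and from 4 floxed controls (FLOX, genotype Alb-cre-). *Smpd3* encodes neutral sphingomyelinase 2, and its floxed allele is cut in hepatocytes by a Cre recombinase under the albumin promoter, which is active in hepatocytes. Every sample came from an animal kept for 9 weeks on HFMCD, an abbreviation used in this field for a high-fat diet deficient in methionine and choline, which the labels do not spell out. No group on another diet was compared, so the values show genotypes on the diet and not the effect of the diet itself. The controls lacked Cre, so an effect of Cre itself and one of losing *Smpd3* cannot be told apart. The labels give no age and do not say whether the samples were separate animals. The p-values here therefore set group differences against a spread between samples that may be only technical.

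In the methionine cycle, methionine adenosyltransferases turn methionine into S-adenosylmethionine, the methyl donor of the cell, and methyltransferases turn that donor into S-adenosylhomocysteine. Hydrolysis of S-adenosylhomocysteine gives homocysteine, which is either methylated back to methionine, in liver partly with betaine made from choline, or drained through cystathionine to cysteine by transsulfuration. The liver is a main site of the body's methionine metabolism, and cysteine from transsulfuration feeds glutathione and taurine there.

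The promoter of *Cbs* is shown because *Cbs* was the one member whose 2 groups did not overlap, and that of *Bhmt* beside it because *Bhmt* was the most abundant member and its groups overlapped. Both windows are RefSeq sequence of build GRCm38.p6, from 250 bases before to 50 bases after the start of the gene, and both lie on the minus strand, *Cbs* at chr17:31637156-31637455 and *Bhmt* at chr13:93637709-93638008. Each is written 5′ to 3′ along the gene, and capitals mark the only match found.
Cbs promoter: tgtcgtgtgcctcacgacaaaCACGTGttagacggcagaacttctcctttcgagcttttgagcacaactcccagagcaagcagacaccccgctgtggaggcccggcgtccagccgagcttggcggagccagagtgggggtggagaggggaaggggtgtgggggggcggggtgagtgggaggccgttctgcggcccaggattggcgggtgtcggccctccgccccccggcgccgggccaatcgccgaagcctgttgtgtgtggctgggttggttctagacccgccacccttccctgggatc
Bhmt promoter: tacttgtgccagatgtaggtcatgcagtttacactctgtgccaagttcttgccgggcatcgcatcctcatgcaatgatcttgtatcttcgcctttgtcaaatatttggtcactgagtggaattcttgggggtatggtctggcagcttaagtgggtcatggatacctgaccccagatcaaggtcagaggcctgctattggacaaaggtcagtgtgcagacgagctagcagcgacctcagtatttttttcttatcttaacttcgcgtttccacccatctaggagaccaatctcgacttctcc
The capitals mark CACGTG, the E-box, which is read by core clock factors and by other factors of the same protein class, and the match began 229 bases before the start of *Cbs*. Each window was searched on both strands for 4 motifs, namely the E-box, the D-box TTATGNAA, the core of the ATF4 element TGATGNAA and the antioxidant element TGACNNNGC. Windows were held for 6 of the 9 genes, 8 windows in all since *Chdh* has 3 starts, and the E-box of *Cbs* was the only match to any of the 4 motifs in those 8 windows. No window was held for *Mat1a*, *Cth* or *Nnmt*, so their promoters were not searched. Among 32851 promoter windows of the same length, 7.15% held the E-box, 3.38% the D-box, 3.97% the ATF4 core and 12.4% the antioxidant element. A match of letters describes the window and does not show that a factor binds there.

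The targeted gene was checked first. *Smpd3* stood at 1.17, 3.03, 1.27 and 2.06 TPM (a transcript's share of its library, corrected for length and scaled to a common total) in HKO 1 to 4, against 8.69, 10.7, 12.5 and 6.38 TPM in FLOX 1 to 4. Every HKO library lay below every FLOX library, and the log2 fold change was -1.89 ± 0.24 (SE, n = 4 per group; Benjamini-Hochberg adjusted p = 0.0300 in limma). Under 17 other settings and omissions *Smpd3* stayed lower in HKO and kept an adjusted p under 0.05 in 10, and it lost it in 5 of the 8 fits that left out 1 library, without a filter and with a replicate block. Exact permutation of the 8 libraries, 2-sided, gave p = 0.0286, the smallest p that 70 assignments allow. All fold changes here are HKO minus FLOX on the log2(TPM + 1) scale, on which differences of weakly expressed genes appear smaller than they are.

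General measures of the libraries overlapped between the genotypes, with 1 control, FLOX 4, furthest apart. Between 12474 and 12890 genes reached 1 TPM in HKO libraries, against 12115 to 12871 in FLOX libraries, and FLOX 4 held the lowest number. In FLOX 4 the 20 most abundant genes took 33.8% of the TPM and mitochondrially encoded genes 8.92%, both the greatest shares of the 8 libraries. HKO 1 came next to FLOX 4 in the number of genes and in the share of the 20 most abundant, at 31.4%. In the fit with library weights, FLOX 4 and HKO 1 had the lowest weights, 0.35 and 0.49, against 1.09 to 1.54 in the others. The labelled tissue was checked against fixed marker lists. Over all 12710 tested genes, 8211 had higher and 4499 lower means on the log2 scale in HKO. The 8 hepatocyte markers summed to between 60914 and 68594 TPM in HKO libraries and between 67397 and 81090 TPM in FLOX libraries, and 8 of 8 had lower means on the log2 scale in HKO, with none past an adjusted p of 0.05. Among periportal hepatocyte markers 6 of 8 had lower and 2 higher values in HKO, and among pericentral markers 2 had lower and 6 higher values. Endothelial markers summed to 66.4 to 90.5 TPM in HKO and 55.8 to 131 TPM in FLOX livers, Kupffer cell markers to 387 to 636 and 330 to 719 TPM, and stellate cell and fibroblast markers to 450 to 647 and 260 to 581 TPM. Cholangiocyte markers summed to 180 to 632 TPM in HKO and 246 to 467 TPM in FLOX livers, and T and NK cell markers to 8.78 to 23.0 and 5.85 to 19.8 TPM. On the log2 scale 8 of 8 endothelial markers had lower means in HKO, with a median log2 fold change of -0.24, and 4 of 7 tested Kupffer cell markers did, with a median of -0.043. The lowest of those 7 was *Marco*, at -0.84 with groups that did not overlap (adjusted p = 0.0609 in limma), while 3 were higher in HKO. Higher means in HKO were seen in 6 of 8 stellate cell and fibroblast markers (median 0.23), 4 of 4 tested cholangiocyte markers (0.17) and 4 of 4 tested T and NK cell markers (0.32), and no marker on any of these lists passed an adjusted p of 0.05. Of the adipocyte markers, *Plin1* and *Lep* were listed at 0 in all 8 libraries, and the 4 together reached at most 0.30 TPM in HKO and 0.58 TPM in FLOX livers. The part of these cell type markers in the results that follow was not tested.

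All 9 genes were expressed at well above the filter of 1 TPM in at least 4 of the 8 libraries, so all 9 were tested. Since TPM is corrected for length, levels of different genes can be set side by side. *Bhmt* had the highest level, 1972 ± 271 TPM (SD over all 8 libraries), and was the 57th most abundant of all identifiers. *Gnmt* followed with 876 ± 127 TPM, *Mat1a* with 681 ± 119 TPM and *Ahcy* with 559 ± 54.5 TPM. The ranges of neighbours in this upper group overlapped from *Gnmt* downward, although *Gnmt* exceeded *Mat1a* in 7 of 8 libraries and *Mat1a* exceeded *Ahcy* in 8 of 8. *Cbs* with 226 ± 41.2 TPM and *Cth* with 215 ± 56.8 TPM formed a middle pair that could not be ordered beyond their spread, *Cbs* being higher in 6 of 8 libraries. *Mat2a* with 82.8 ± 11.6 TPM and *Nnmt* with 74.5 ± 9.03 TPM overlapped as well, and *Chdh* was lowest with 51.1 ± 6.34 TPM, below *Nnmt* in 8 of 8 libraries.

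Whether the knockout livers differed from the controls in these genes was asked in limma across all 12710 tested genes. None of the 9 passed a Benjamini-Hochberg adjusted p of 0.05, where 13 of all tested genes did (0.102%; 0.0472% higher and 0.0551% lower in HKO), and the smallest adjusted p among the 9 was 0.141. At an unadjusted p under 0.05, 2 of the 9 passed, *Cbs* and *Cth*, both higher in HKO livers. Over all tested genes 8.02% passed at that level in either direction, 5.57% as higher and 2.45% as lower in HKO. The 9 were chosen with earlier results of these data known, so 2 of 9 describes them and is no independent excess. One member, *Cbs*, had groups that did not overlap, where 4.74% of all tested genes had such groups, 3.29% with HKO higher and 1.46% with HKO lower. Of the 9, 4 had higher and 5 had lower means in HKO livers, where 8211 of all tested genes had higher and 4499 lower means. The members' median log2 fold change was -0.056, beside 0.054 over all tested genes. After median-of-ratios scaling these medians were -0.11 and 0.0036, after quantile normalization -0.056 and 0.0016, and without FLOX 4 -0.14 and -0.0057. The members' median turned above 0 without HKO 1 (0.017), FLOX 2 (0.0031) or FLOX 3 (0.032). Bulk liver was measured, in which fewer cells of a type and less RNA per cell cannot be told apart.

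**Figure D1:**
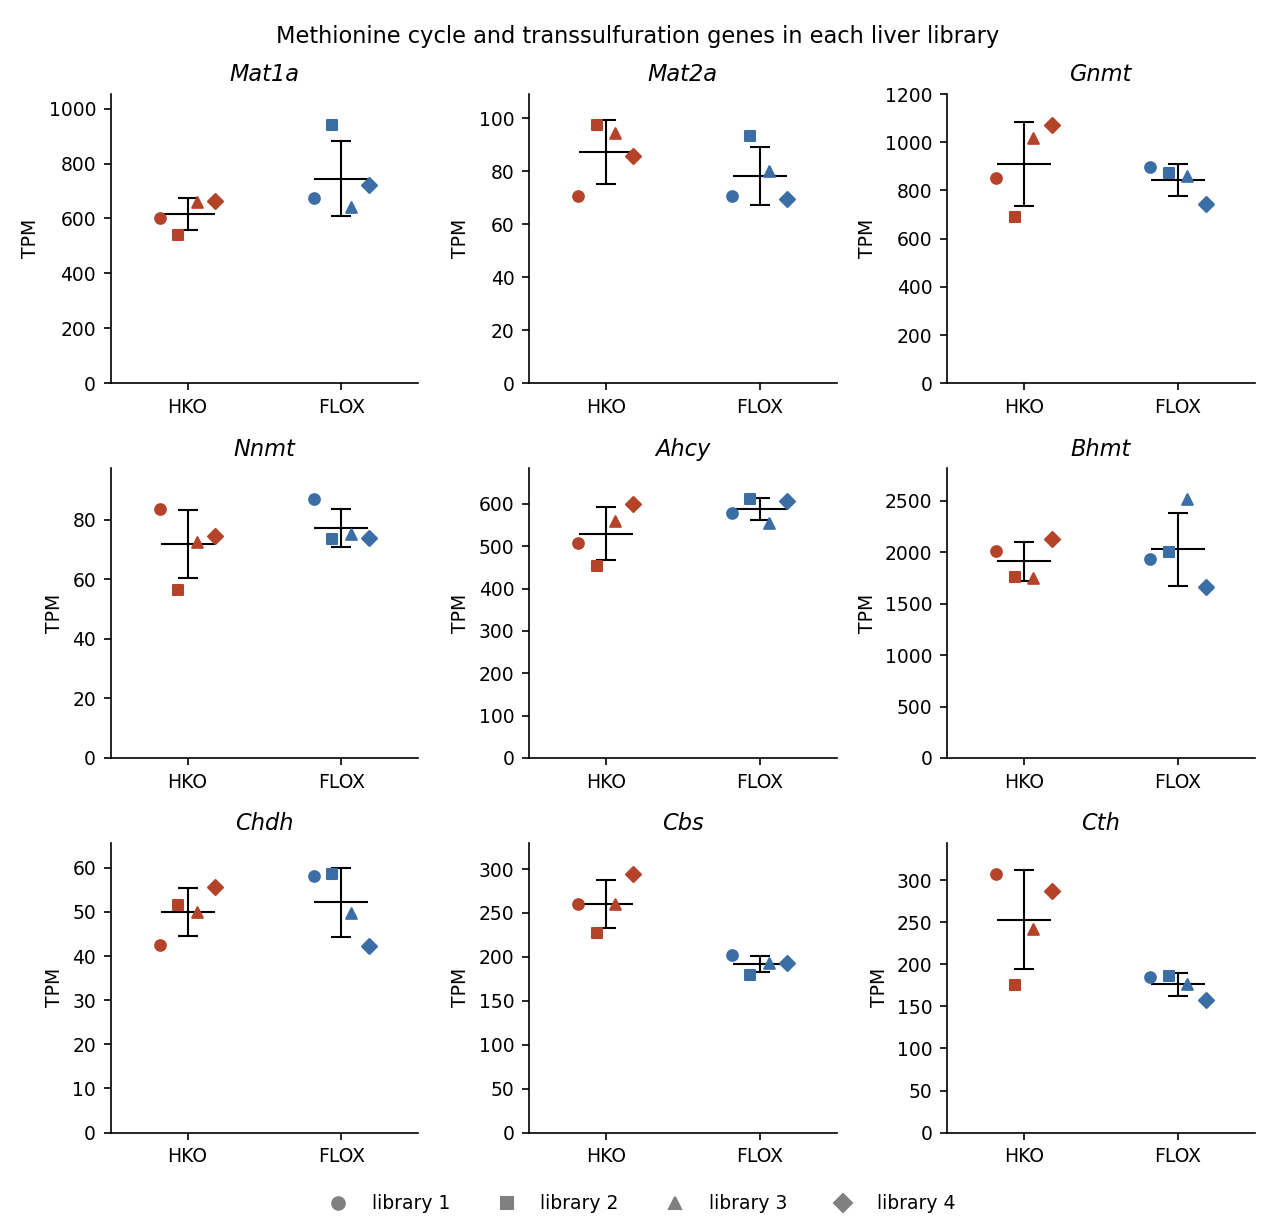
TPM of each of the 9 genes (vertical axes from 0) in the 4 HKO libraries, in red on the left, and the 4 FLOX libraries, in blue on the right. Symbols mark the library number, and bars give the mean ± SD; only *Cbs* separates the groups, with HKO at 227 TPM or more and FLOX at 203 TPM or less.

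The transsulfuration pair showed the greatest differences of the 9. *Cbs* (ENSMUSG00000024039) encodes cystathionine beta-synthase, which joins homocysteine and serine and so commits homocysteine to leaving the cycle. Its level was 260, 227, 260 and 294 TPM in HKO 1 to 4, against 203, 180, 193 and 193 TPM in FLOX 1 to 4. All 4 knockout libraries were above all 4 controls, and HKO 2 came closest to them. The means were 260 ± 27.5 TPM in HKO and 192 ± 9.41 TPM in FLOX livers (SD, n = 4 each), a ratio of 1.36. The log2 fold change of *Cbs* was 0.43 ± 0.087 (SE; 95% confidence interval 0.24 to 0.63), with an unadjusted p of 0.000525 and an adjusted p (Benjamini-Hochberg, over all tested genes) of 0.141 in limma. By unadjusted p it ranked 47th of the 12710 genes. The difference therefore exceeded the spread between these libraries for *Cbs* taken alone, and did not pass once all genes tested were counted.

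*Cth* (ENSMUSG00000028179) encodes cystathionine gamma-lyase, which splits cystathionine and releases cysteine. It stood at 307, 175, 242 and 287 TPM in HKO 1 to 4, against 185, 186, 176 and 157 TPM in FLOX 1 to 4. Of the knockout libraries, 3 of 4 were above every control, while HKO 2 lay within the range of the controls. The means were 253 ± 58.5 TPM in HKO and 176 ± 13.4 TPM in FLOX livers (SD, n = 4 each), a ratio of 1.44, and the coefficient of variation was 23.1% in HKO and 7.63% in FLOX livers. Its log2 fold change was 0.49 ± 0.16 (SE; 95% confidence interval 0.15 to 0.84), with an unadjusted p of 0.00982 and an adjusted p of 0.364 in limma. Without HKO 2 the log2 fold change of *Cth* was 0.66 with an adjusted p of 0.131, and without HKO 1 it was 0.39 with an adjusted p of 0.400. Across the 17 other settings and omissions tried, *Cth* stayed higher in HKO with an adjusted p between 0.131 and 0.715, and *Cbs* with one between 0.102 and 0.338.

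**Figure D2:**
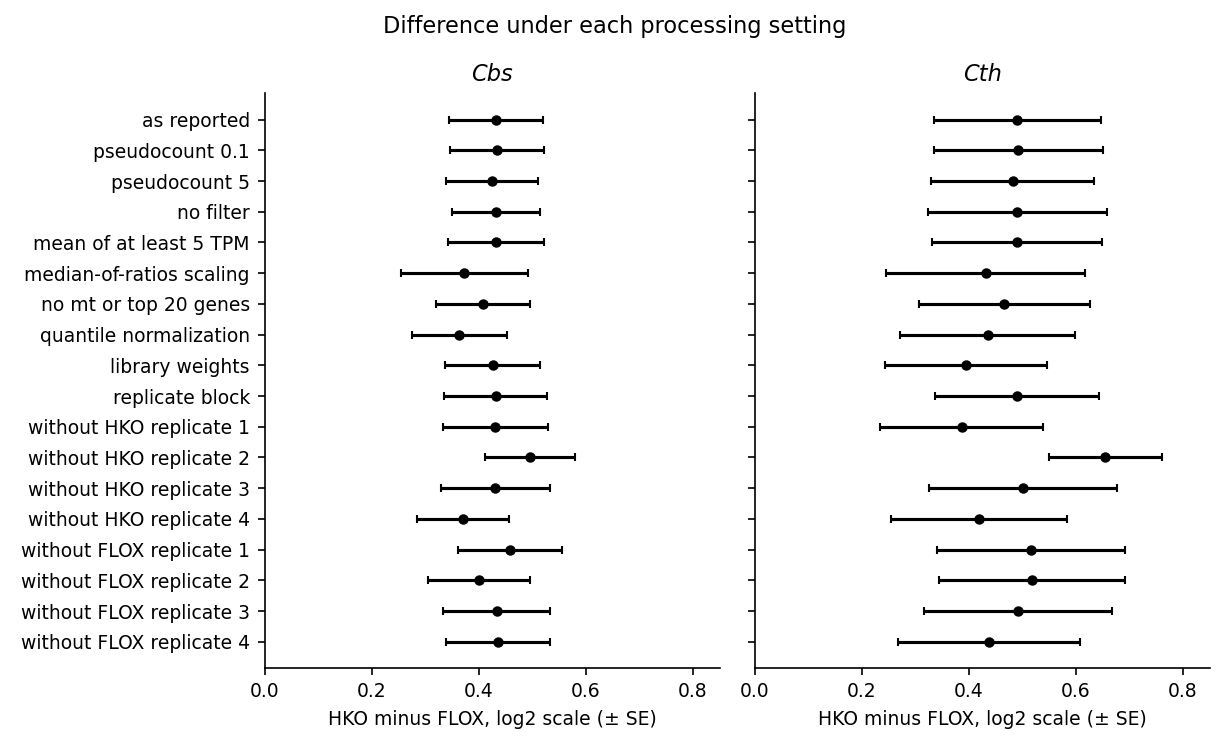
Log2 fold change of *Cbs* (left) and *Cth* (right), HKO minus FLOX, with its SE (horizontal axes), as reported and under each of 17 other settings (rows). *Cbs* stays between 0.36 and 0.50 and *Cth* between 0.39 and 0.66, with the highest value of both in the fit without HKO 2.

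HKO 2, the knockout library with the lowest *Cbs* and *Cth*, also had the lowest values of all 8 libraries for *Mat1a*, *Gnmt*, *Ahcy* and *Nnmt*, and the highest for *Mat2a*. Its periportal hepatocyte markers were lower by 0.40 on the log2 scale than their mean over all libraries, against deviations of 0.04 to 0.08 in the other HKO libraries and -0.04 to 0.13 in the FLOX libraries. Its hepatocyte markers were the lowest of the 8 libraries as well, at -0.17, next to -0.12 in HKO 1, which held the highest *Cth*. In HKO 2 the cholangiocyte markers, at 0.63, and the stellate cell and fibroblast markers, at 0.29, were the highest. The pericentral hepatocyte markers of HKO 2, at 0.068, lay within the range of the other libraries. The part of these markers in the members' values was not tested.

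The methionine adenosyltransferase genes make the enzyme in 2 forms. *Mat1a* (ENSMUSG00000037798) is the form of the adult hepatocyte, and *Mat2a* (ENSMUSG00000053907) is the form of most other cells and of growing or injured liver. *Mat1a* was at 602, 539, 661 and 662 TPM in HKO 1 to 4, against 674, 942, 642 and 723 TPM in FLOX 1 to 4. HKO 1 and HKO 2 lay below every control, the others lay within their range, and FLOX 2 stood above all other libraries. The means were 616 ± 58.6 TPM in HKO and 745 ± 135 TPM in FLOX livers (SD, n = 4 each), with a log2 fold change of -0.26 ± 0.12 (SE; 95% confidence interval -0.53 to 0.0057), an unadjusted p of 0.0542 and an adjusted p of 0.633 in limma. With 1 library left out the log2 fold change of *Mat1a* ran from -0.33 without FLOX 3, with an unadjusted p of 0.0254 in limma, to -0.14 without FLOX 2. Its unadjusted p was under 0.05 in 3 of the 17 other settings and omissions, and its adjusted p was never below 0.532.

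*Mat2a* was at 70.8, 97.6, 94.4 and 85.9 TPM in HKO 1 to 4, against 70.8, 93.1, 80.0 and 69.4 TPM in FLOX 1 to 4. The groups overlapped through HKO 1, which equalled FLOX 1, and through FLOX 2. The log2 fold change of *Mat2a* was 0.15 ± 0.13 (SE; 95% confidence interval -0.13 to 0.43; adjusted p = 0.863 in limma). It was 0.25 without HKO 1 and 0.24 without FLOX 2, against 0.094 without HKO 2, 0.098 without FLOX 4, 0.093 after median-of-ratios scaling and 0.081 after quantile normalization. The ratio of *Mat1a* to *Mat2a* TPM within a library was 8.51, 5.52, 7.0 and 7.71 in HKO 1 to 4, against 9.51, 10.1, 8.03 and 10.4 in FLOX 1 to 4. In 3 of 4 knockout libraries the ratio was below every control, while HKO 1 lay above FLOX 3, and the means were 7.18 ± 1.27 in HKO and 9.52 ± 1.06 in FLOX livers (SD, n = 4 each). The ratio is given as a description and was not tested.

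The methyltransferase members use S-adenosylmethionine on small acceptors. *Gnmt* (ENSMUSG00000002769), glycine N-methyltransferase, disposes of excess S-adenosylmethionine in liver by making sarcosine. It was at 852, 688, 1018 and 1074 TPM in HKO 1 to 4, against 896, 874, 861 and 745 TPM in FLOX 1 to 4. The knockout libraries lay on both sides of the controls, with 2 above and 1 below all of them, and their SD was 174 TPM, against 67.4 TPM in FLOX livers. The log2 fold change of *Gnmt* was 0.088 ± 0.13 (SE; 95% confidence interval -0.20 to 0.38; adjusted p = 0.942 in limma). With 1 library left out it ran from 4.7e-05 without HKO 4 to 0.21 without HKO 2.

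*Nnmt* (ENSMUSG00000032271) encodes nicotinamide N-methyltransferase, which is abundant in hepatocytes and also made by fibroblasts and fat cells. It ranged from 56.3 to 83.6 TPM in HKO livers (median 73.4) and from 73.4 to 86.8 TPM in FLOX livers (median 74.4), and the groups overlapped. Its log2 fold change was -0.12 ± 0.12 (SE; 95% confidence interval -0.38 to 0.15; adjusted p = 0.901 in limma). With 1 library left out it ran from -0.19 without HKO 1 to -0.0074 without HKO 2.

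*Ahcy* (ENSMUSG00000027597) encodes the hydrolase that clears S-adenosylhomocysteine, an inhibitor of methyltransferases, and releases homocysteine. It was at 509, 453, 558 and 600 TPM in HKO 1 to 4, against 578, 611, 555 and 607 TPM in FLOX 1 to 4. HKO 1 and HKO 2 were below every control and the other knockout libraries were within the range of the controls. The log2 fold change of *Ahcy* was -0.16 ± 0.090 (SE; 95% confidence interval -0.36 to 0.044; adjusted p = 0.742 in limma). With 1 library left out it ran from -0.22 without HKO 4, with an unadjusted p of 0.0343 in limma, to -0.083 without HKO 2.

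Remethylation with betaine was represented by *Bhmt* (ENSMUSG00000074768), betaine-homocysteine methyltransferase, and by *Chdh* (ENSMUSG00000015970), the choline dehydrogenase that starts the making of betaine in mitochondria. *Bhmt* ranged from 1745 to 2133 TPM in HKO livers (median 1885) and from 1665 to 2516 TPM in FLOX livers (median 1972). The knockout libraries lay inside the range of the controls, with a log2 fold change of -0.076 ± 0.12 (SE; 95% confidence interval -0.34 to 0.19; adjusted p = 0.943 in limma). FLOX 3 held the highest value, and without it the log2 fold change of *Bhmt* was 0.032, while without FLOX 4, which held the lowest, it was -0.17. *Bhmt* and *Bhmt2* are related genes that could share reads, which was not tested, so the split between them may be uncertain. *Bhmt2* averaged 79.2 ± 13.8 TPM in HKO and 80.5 ± 13.05 TPM in FLOX livers (SD, n = 4 each). *Chdh* ranged from 42.6 to 55.7 TPM in HKO livers (median 50.8) and from 42.2 to 58.6 TPM in FLOX livers (median 53.9), again inside the range of the controls. Its log2 fold change was -0.056 ± 0.13 (SE; 95% confidence interval -0.33 to 0.22; adjusted p = 0.970 in limma), and it was 0.017 without HKO 1 and 0.0031 without FLOX 2.

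**Figure D3:**
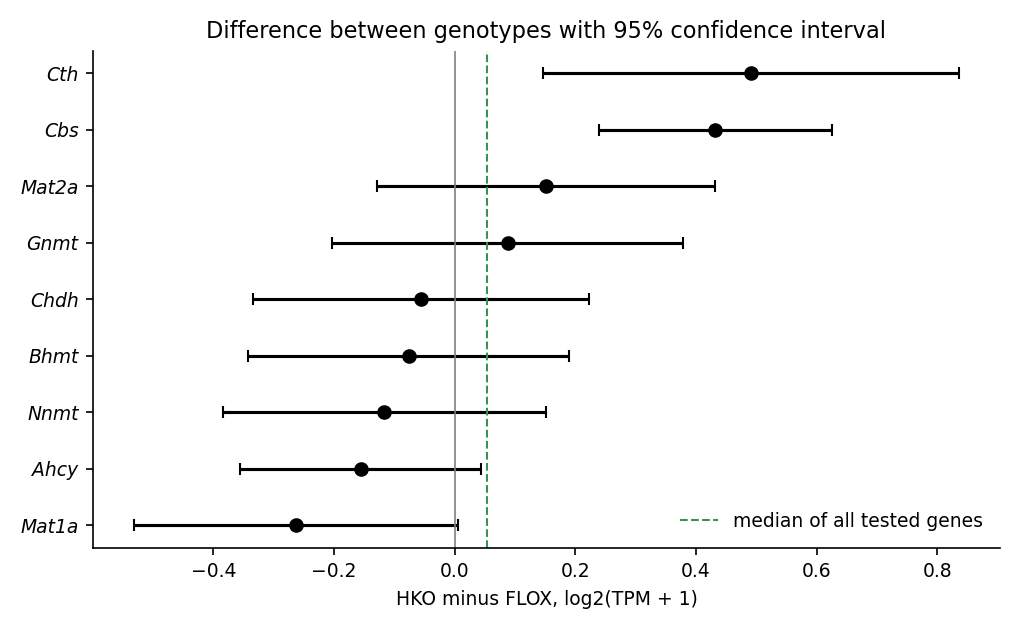
Log2 fold change, HKO minus FLOX on the log2(TPM + 1) scale (horizontal axis), of the 9 genes with 95% confidence intervals. The dashed line is the median of all tested genes, 0.054, and the intervals of *Cth* and *Cbs* lie above 0 while the other 7 include it.

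The spread of the 9 genes over the libraries differed from gene to gene. *Cth* had the greatest SD over the 8 libraries, 0.36 on the log2 scale, followed by *Cbs* with 0.26 and *Mat1a* with 0.23, and *Ahcy* had the smallest with 0.15. The median SD of the 9 was 0.20, beside 0.22 for all tested genes and 0.15 for the 2350 with a mean of at least 40 TPM. FLOX 4 held the lowest value of *Mat2a*, *Bhmt*, *Cth* and *Chdh*, and HKO 2 that of *Mat1a*, *Gnmt*, *Ahcy* and *Nnmt*, so that those 2 libraries held the lowest value of 8 of the 9 genes. HKO 4 lay above the gene's own mean on the log2 scale for 8 of the 9. FLOX 4 also had the lowest stellate cell and fibroblast, endothelial and T and NK cell markers of the 8 libraries, with deviations of -0.84, -0.62 and -0.54 from the mean over all libraries, and a Kupffer cell deviation of -0.49, the same as that of HKO 1. The part of those markers in the members' values was not tested. The summed TPM of the 9 was 4736, 4050, 4702 and 5267 in HKO 1 to 4, against 4690, 5024, 5148 and 4277 in FLOX 1 to 4, which overlapped. These sums were 0.407% to 0.529% of all TPM in HKO and 0.430% to 0.518% in FLOX libraries. Without FLOX 4 the log2 fold change was 0.44 for *Cbs* and 0.44 for *Cth*.

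**Figure D4:**
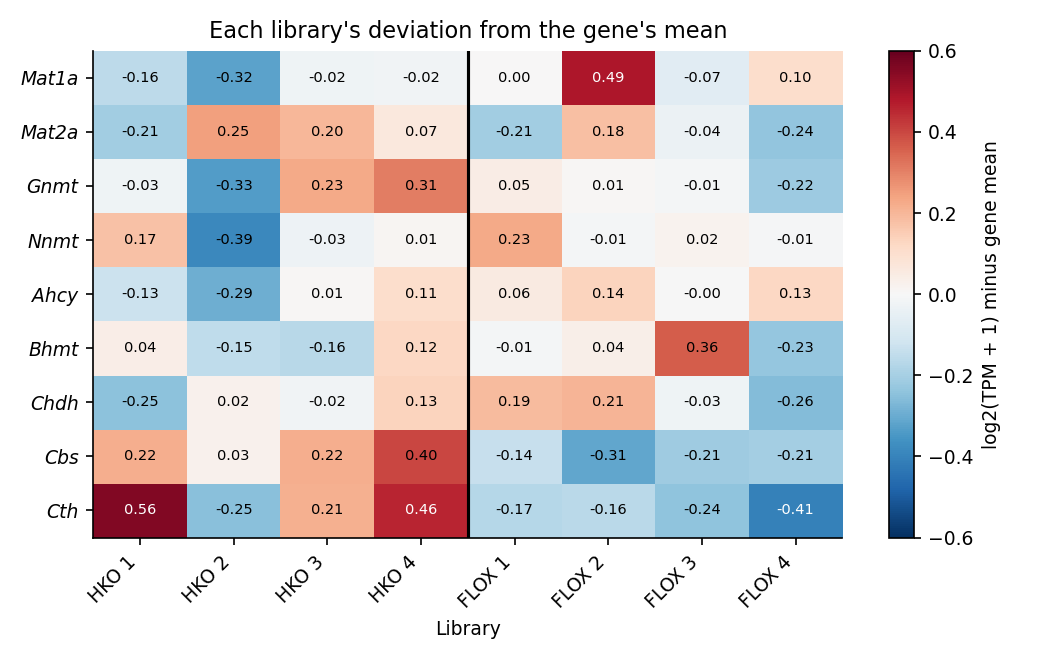
Deviation of log2(TPM + 1) from the gene's mean over the 8 libraries (colour and printed value) for the 9 genes (rows) in HKO 1 to 4, left of the line, and FLOX 1 to 4, right of it. The *Cbs* row is above 0 in all 4 HKO and below 0 in all 4 FLOX libraries, and the HKO 2 column holds the lowest values of *Mat1a*, *Gnmt*, *Nnmt* and *Ahcy*.

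The genes whose pattern over the 8 libraries was most like that of the 2 most variable members were then named, by the root-mean-square difference between log2 values centred on each gene's own mean. For *Cbs* these were *Sigirr*, an inhibitor of interleukin-1 receptor signalling, at 0.065, *B3gat3*, a glucuronosyltransferase of proteoglycan linkers, at 0.074, and *Snrpa*, a protein of the U1 splicing particle, at 0.076, where the median over all other tested genes was 0.30. All 3 had groups that did not overlap, where 4.74% of all tested genes had such groups. Log2 fold changes were 0.40, 0.35 and 0.37 for *Sigirr*, *B3gat3* and *Snrpa*, and none passed in limma (adjusted p = 0.223, 0.251 and 0.263). For *Cth* the nearest were *Zfp236*, a zinc finger gene, at 0.14, *Gas2*, a gene of the cytoskeleton, at 0.15, and *Flywch2* at 0.17, where the median was 0.38. Their means were 3.98, 26.8 and 1.75 TPM in HKO and 2.95, 19.9 and 0.973 TPM in FLOX livers for *Zfp236*, *Gas2* and *Flywch2*. These genes were picked for likeness among all tested genes over the same 8 libraries, so the likeness is a description. Group differences like those of *Cbs* and *Cth* follow from that pick and are no separate result.

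Genes around the cycle were read from 7 lists with 99 genes in all, of which 96 passed the filter on low values and *Aldh1l2*, *Dnmt3b* and *Slc7a6* did not. None of the 96 passed an adjusted p of 0.05 in limma, beside 0.102% of all tested genes. At an unadjusted p under 0.05, 11 were higher and 3 lower in HKO livers, or 14.6% of the 96 beside 8.02% of all tested genes. Groups did not overlap for 7 higher and 2 lower of the 96, beside 3.29% and 1.46% of all tested genes. The median log2 fold change of the 96 was 0.080, beside 0.054 over all tested genes. Counts of each list below stand beside 5.57% higher and 2.45% lower over all tested genes at that unadjusted level. The lists were chosen with earlier results of these data known, so their shares are a description and no independent excess.

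The list of cysteine use below transsulfuration held the gene with the smallest p of the 96. *Gclc*, the catalytic subunit of the ligase that starts glutathione synthesis from cysteine, was at 139, 171, 138 and 158 TPM in HKO 1 to 4, against 111, 115, 92.5 and 83.9 TPM in FLOX 1 to 4. Those groups did not overlap, and its log2 fold change was 0.59 ± 0.12 (SE, n = 4 per group; adjusted p = 0.134 in limma). *Kyat3*, a transaminase that also acts on cysteine conjugates, averaged 95.1 ± 26.2 TPM in HKO and 56.8 ± 6.45 TPM in FLOX livers (SD, n = 4 each; adjusted p = 0.223 in limma), again without overlap. *Suox*, the sulfite oxidase at the end of cysteine breakdown, averaged 41.3 ± 3.69 and 33.7 ± 4.51 TPM in HKO and FLOX livers (adjusted p = 0.526 in limma). *Gclc*, *Kyat3* and *Suox* were the 3 of 14 under an unadjusted p of 0.05, all higher in HKO, beside 5.57% of all tested genes. The 11 that were not included *Gclm*, the other subunit of the *Gclc* ligase, with a log2 fold change of 0.030 (adjusted p = 0.975 in limma). *Gss*, the next enzyme of glutathione synthesis, was also among the 11, at 0.13 (adjusted p = 0.786 in limma). The list's median was 0.076.

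Among 17 tested genes of folate and one-carbon metabolism, 3 were higher and 1 lower at an unadjusted p under 0.05, with a list median of 0.013. Of the glycine cleavage genes on the list, *Amt* and *Gldc* had log2 fold changes of 0.36 and 0.42 (adjusted p = 0.302 and 0.607 in limma). Only *Amt* of that pair had groups that did not overlap. *Gcsh*, a further glycine cleavage gene on the list, had a log2 fold change of -0.018 (adjusted p = 0.993 in limma), with overlap. *Mthfd2l*, a mitochondrial folate dehydrogenase, was lower, at 2.09 ± 0.61 TPM in HKO and 3.998 ± 0.65 TPM in FLOX livers (SD, n = 4 each; adjusted p = 0.223 in limma), and its groups did not overlap.

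In the list of other genes of the methionine cycle and of choline oxidation, 10 of 12 had higher means in HKO livers. Over all 12710 tested genes, 8211 had higher means. Of the 12, 1 was under an unadjusted p of 0.05, and the list's median was 0.087. That gene was *Mat2b*, the regulatory subunit that partners the *Mat2a* product, with 24.6, 27.8, 27.5 and 27.4 TPM in HKO 1 to 4, against 23.1, 25.6, 21.5 and 19.7 TPM in FLOX 1 to 4. HKO 1 lay inside the range of the controls and the log2 fold change was 0.25 ± 0.10 (SE; adjusted p = 0.588 in limma).

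Among 20 tested methyltransferase genes outside the 9, 1 was higher and 1 lower at an unadjusted p under 0.05, with a median of 0.098. *Gamt*, which makes creatine and is a large user of S-adenosylmethionine, averaged 227 ± 17.8 TPM in HKO and 264 ± 11.1 TPM in FLOX livers (SD, n = 4 each; log2 fold change -0.22, adjusted p = 0.467 in limma). *Mettl7b*, a thiol methyltransferase, averaged 631 ± 39.4 TPM in HKO and 528 ± 55.5 TPM in FLOX livers (log2 fold change 0.26, adjusted p = 0.435 in limma). The groups of neither gene overlapped.

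In the salvage and polyamine list, 2 of 14 were under an unadjusted p of 0.05, both higher in HKO, and the median was 0.048. *Paox*, a polyamine oxidase, averaged 22.2 ± 1.60 TPM in HKO and 16.3 ± 2.19 TPM in FLOX livers (SD, n = 4 each; adjusted p = 0.269 in limma), without overlap of the groups. *Il4i1*, an amino acid oxidase, averaged 1.42 ± 0.23 and 0.89 ± 0.30 TPM in HKO and FLOX livers (adjusted p = 0.616 in limma), with overlap. Of 9 tested transport genes, *Slc3a2*, the heavy chain of amino acid exchangers, had a log2 fold change of 0.30 and *Slc43a1*, a carrier of large neutral amino acids, one of -0.63 (adjusted p = 0.491 and 0.520 in limma), and the list's median was -0.071. Only *Slc3a2* of that pair had groups that did not overlap. None of 10 nicotinamide and NAD genes was under an unadjusted p of 0.05 in limma. The smallest p among them, 0.0552, was that of *Nmrk1*, a nicotinamide riboside kinase, with a log2 fold change of -0.28, and the list's median was 0.13.

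**Figure D5:**
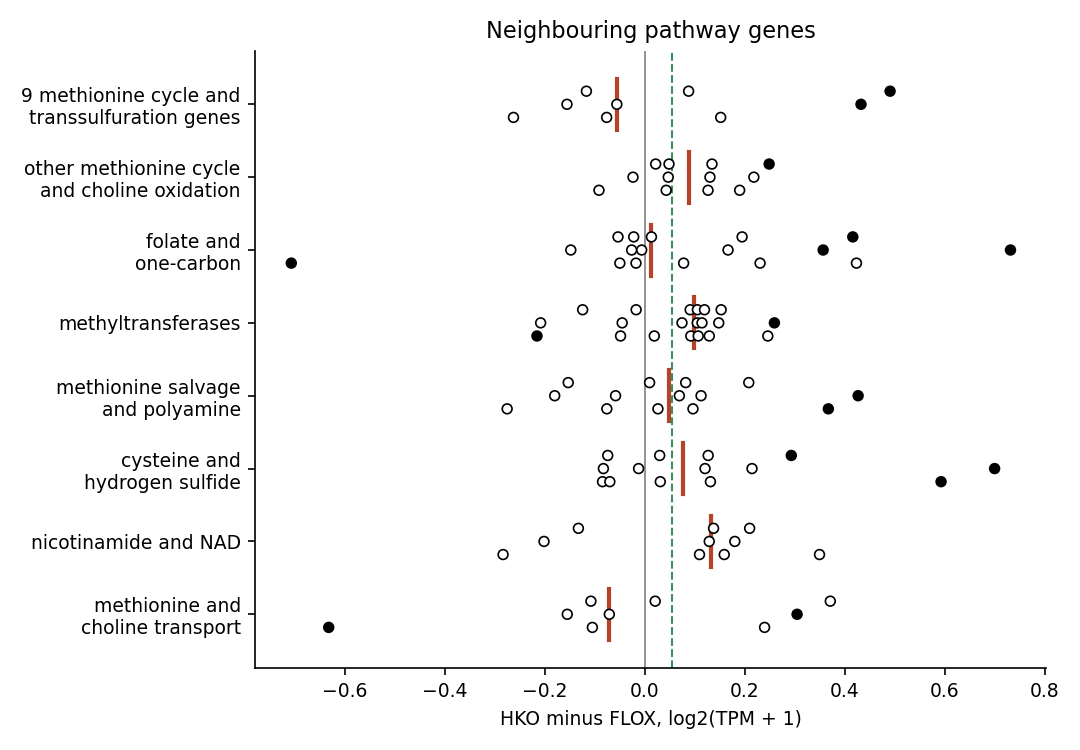
Log2 fold change, HKO minus FLOX (horizontal axis), of each tested gene (points) in the 9 genes and in 7 lists of neighbouring pathways (rows). Filled points have an unadjusted p under 0.05, red bars are list medians and the dashed line is the median of all tested genes, 0.054; none of the points passed an adjusted p of 0.05.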

How the data were processed

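RNA of 8 mouse liver samples was sequenced from stranded total RNA libraries, per the labels' protocols, and grouped by the sample titles. The authors deposited 1 table of TPM values (55416 identifiers, 8 columns), each library scaled to its own total. RSEM 1.3.3 is named in the submitters' processing notes, as is GRCh38.p13, a human build, although the identifiers are mouse genes. Aligner, annotation and strand setting: not given in the sources used here. TPM keeps no depth, so depth is unknown and no counting interval is given.

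Symbols came from a table matching 52083 identifiers. The 12710 genes that reached 1 TPM in 4 or more libraries were compared as log2(TPM + 1) in limma 3.58.1 under R 4.3.3 (lmFit, eBayes with trend, no covariates), adjusted over all of them. The test was checked on simulated data. *Smpd3* was also permuted exactly in scipy 1.17.1.

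Named genes were *Smpd3*, all 9 members, from each pathway list up to 4 genes under an unadjusted p of 0.05 or else the gene of smallest p, and 3 genes nearest in pattern to each of the 2 most variable members. *Bhmt2*, *Gcsh*, *Gclm* and *Gss* were added after their values were seen. One list gene is counted but not reported here. Members and lists were chosen with earlier results of these data known. Settings varied were the pseudocount (0.1 and 5), the filter (none, or a mean of 5 TPM or more) and the scaling (median of ratios, quantile, or totals that omit the 20 most abundant and the mitochondrially encoded genes). Library weights, a block for the replicate number and the omission of each library were tried too.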

Additional observations from a re-analysis of the deposited data

Results flagged for a closer look

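In 4 of 62 groups checked, over 31 named genes, 1 library stood further from the other libraries of its group than a Dixon test allows at the 95% level, a test that chance passes in about 1 of 20 groups. *Nnmt* was 86.8 TPM in FLOX 1, against 73.4 to 75.2 TPM in the other controls. *Mat2b* was 24.6 TPM in HKO 1, against 27.4 to 27.8 TPM in the other knockouts. *Mthfd2l* was 3.03 TPM in FLOX 1, against 4.22 to 4.45 TPM in the other controls. *Sigirr* was 15.1 TPM in FLOX 1, against 13.8 to 13.9 TPM in the other controls. FLOX 1 was the library in 3 of the 4, and the cause was not tested.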

How the results depend on the processing

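No member and no pathway gene passed in any of the 17 alternatives, and 2 or 3 members were under an unadjusted p of 0.05 in each, always including *Cbs* and *Cth*. Where there were 3, the other was *Mat1a* in 3 alternatives and *Ahcy* in 1. The members' median log2 fold change ran from -0.14 to 0.032. Over all genes 8 passed with a pseudocount of 0.1, 6 with 5, 0 without a filter, 20 after rescaling without mitochondrially encoded and abundant genes, 20 with library weights, and 0 to 16 with 1 library left out, where 13 passed as reported. Without a filter 1539 genes were under an unadjusted p of 0.05. Leaving out FLOX 1 or HKO 3 gave 0, HKO 2 gave 2, FLOX 4 gave 3 and HKO 1 gave 5. *Smpd3* passed in 10 of the 17, and its log2 fold change was -2.34 with a pseudocount of 0.1 and -1.07 with 5. It kept a log2 fold change of -1.89 without a filter, but its adjusted p was 0.167, and with 1 library left out it ran from -2.06 to -1.76 with an adjusted p up to 0.0874. With 1 library left out *Bhmt* ran from -0.17 to 0.032 and *Chdh* from -0.15 to 0.017. The direction turned for *Bhmt* without FLOX 3 (0.032) and for *Chdh* without HKO 1 (0.017) or FLOX 2 (0.0031), and the cause was not tested. Same-numbered libraries did not deviate together (correlations of -0.15, 0.031, -0.15 and -0.20 over genes, and 0 of 4 HKO libraries correlated best with its own number). With the replicate number as a block 0 genes passed, with 743 under an unadjusted p of 0.05, and *Smpd3* stood at -1.89 with an adjusted p of 0.0818. Depth is unknown, so the precision of single values is too.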
